A study of Mus musculus with 6 samples.

Results

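Chemokines are small secreted proteins that steer the movement of white blood cells, and chemokine receptors are the membrane proteins that read them. Here 46 genes of this system, 31 ligands and 15 receptors, were followed in the bone marrow of diabetic and wild type mice. The members were the genes among 19938 with a probe set of their own whose symbol starts with Ccl, Cxcl, Ccr or Cxcr and a digit, with Cxcl12 and Cxcr4 left out. A gene with several probe sets was represented by the brightest of them, judged by the mean over the 6 arrays. The rule reads only symbols and mean signals, but the members were chosen with earlier results of these data known.

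The 3 diabetic samples carry the label BKS.Cg-Dock7m -/- Leprdb/JNju and the 3 wild type ones BKS.Cg-Dock7m +/+ Leprdb/JNju, so the strings differ in the sign after Dock7m, and both name the Dock7m and Leprdb alleles. All were males of 10 weeks. Leprdb is a germline variant of the leptin receptor, which in homozygous mice causes obesity and type 2 diabetes, and it is carried by every cell of the animal. Cells had been rinsed from femur and tibia shafts without sorting, and total RNA was hybridised to Affymetrix gene arrays. The sources used here do not say whether the RNA on an array came from 1 animal or from several, so a p-value covers only the spread among these samples, which may be technical.

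In bone marrow, chemokines hold maturing cells in place, release them to the blood and call effector cells to sites of infection. The CXC ligands Cxcl9, Cxcl10 and Cxcl11 are induced by interferons and act on Cxcr3 of activated T cells and NK cells. The CXC ligands Cxcl1, Cxcl2, Cxcl3 and Cxcl5 act on Cxcr2 and draw neutrophils. The CC ligands Ccl2, Ccl7 and Ccl12 act on Ccr2, which inflammatory monocytes need to leave the marrow, and other CC ligands serve Ccr1, Ccr3, Ccr7 and further receptors.

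Values were log2 signals, and a level filter was set at 7.52, the 40th percentile of the mean signals of all probe sets with 1 symbol. Of the 46 members, 22 lay at or above it and 24 below it. No member had group means on both sides of the filter, so none passed through its higher group alone. Among genes of the lists used below for comparison, Rgs1, Cr2, Cd28 and Gzmb passed it with a wild type mean under it. The signal of a probe set also depends on its probes. Levels are therefore compared between groups for the same gene or the same list of genes, and not between genes. Array medians ran from 7.67 to 7.73 on the log2 scale, and pairs of arrays correlated at 0.9785 to 0.9941 over the 11940 genes at or above the filter. Marrow markers were measured on all arrays: 13 of 13 late neutrophil, 7 of 7 erythroid and 12 of 13 B cell genes with a probe set lay above the filter. So did 8 of 14 stromal and endothelial genes, and 11940 of all 19938 genes lay at or above it.

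The interferon-induced ligands Cxcl9 and Cxcl10 fell in diabetic marrow, and no other member passed the test in either direction. Cxcl9 was 2.09-fold lower and Cxcl10 1.74-fold lower. Their receptor Cxcr3 had a log2 change of -0.08 ± 0.08 (SE, n = 3 per group) and did not pass. Every SE of a log2 change is the moderated one of limma, which draws on the spread of all genes in the fit. Among members above the level filter that did not pass, the eosinophil receptor Ccr3, the ligand Ccl6 and the receptor Ccr1 were higher on all 3 diabetic arrays than on any wild type array. The same held for the dim members Ccl1, Ccl4 and Ccr1l1.

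In counts, 2 of the 22 members above the level filter were lower at an adjusted p under 0.05 (limma, Benjamini-Hochberg over 11940 genes), where 0.327% of all genes tested were lower by that rule. In the upward direction 0 of 22 passed in limma, where 0.0838% of all genes did. At an unadjusted p under 0.05, 2 members were lower, against 3.17% of genes, and 4 members were higher, against 3.99% of genes. The groups did not overlap in 2 members that were lower, against 5.38% of genes, and in 3 that were higher, against 6.99% of genes. The median log2 change of the 22 members was 0.04, against 0.00 over all genes above the filter, with 8 members lower and 14 higher.

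**Figure D1:**
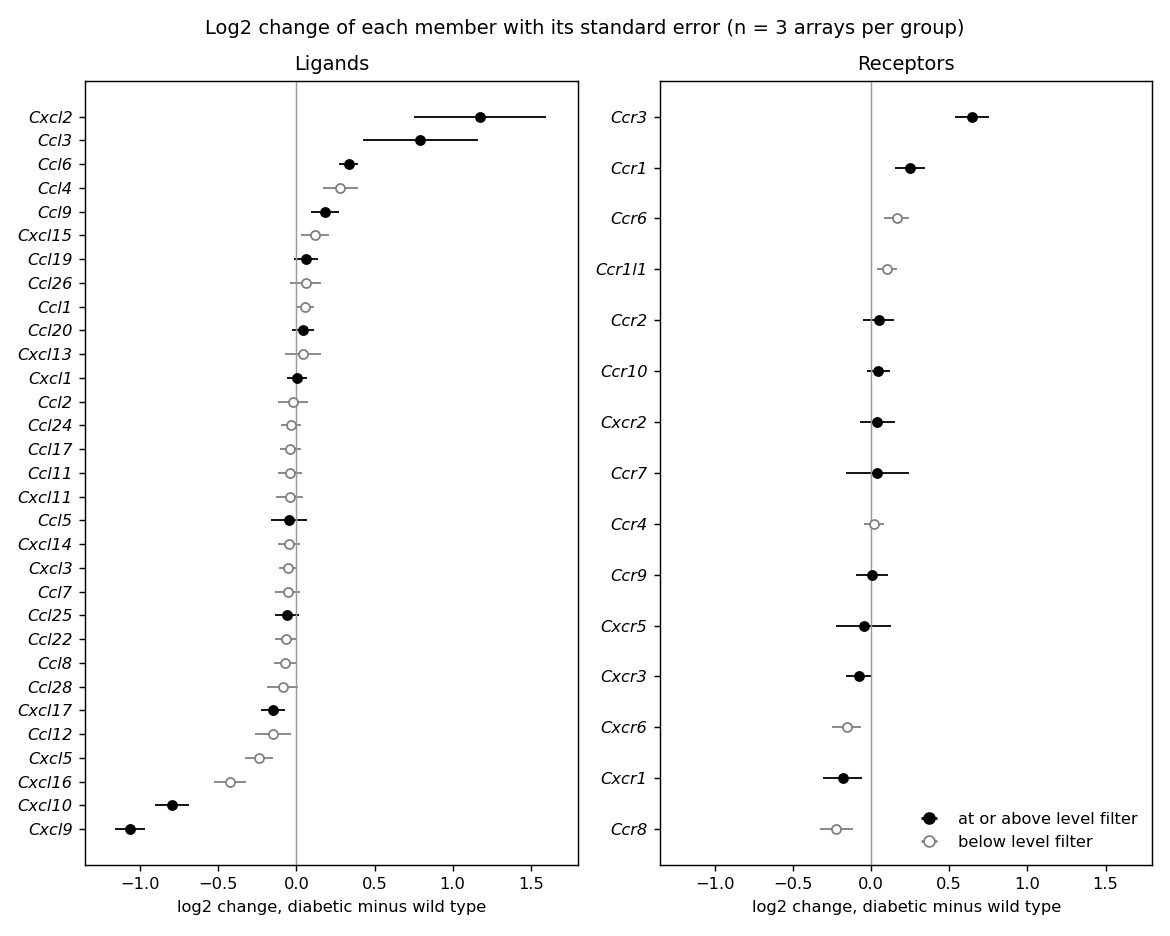
Log2 change (diabetic minus wild type, x axis) with its moderated standard error for 31 ligands (left) and 15 receptors (right), 3 arrays per group. Filled points lie at or above the level filter and open points below it. Cxcl9 at -1.06 and Cxcl10 at -0.80 stand at the low end and Cxcl2 at 1.18, with an error of 0.42, at the high end.

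Cxcl9 (probe set 10531407, chromosome 5) attracts T cells and is made mostly by macrophages and other cells under interferon gamma. Its log2 signals were 8.19, 8.14 and 8.07 on the diabetic arrays and 8.996, 9.27 and 9.34 on the wild type arrays. The groups were separated by a gap wider than either group's range, with the diabetic arrays close together. The mean was 8.14 ± 0.06 in diabetic and 9.20 ± 0.18 in wild type marrow (SD, n = 3 each), a log2 change of -1.06 ± 0.09 (SE), and the adjusted p of limma was 0.0118.

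Cxcl10 (probe set 10531415, chromosome 5), a second ligand of Cxcr3 that type I and type II interferons both induce, showed the same direction. Its log2 signals were 7.87, 7.76 and 8.06 on the diabetic arrays and 8.55, 8.66 and 8.88 on the wild type arrays. All 3 diabetic values lay under all 3 wild type values. The mean was 7.90 ± 0.15 in diabetic and 8.69 ± 0.17 in wild type marrow (SD, n = 3 each), a log2 change of -0.80 ± 0.11 (SE) with an adjusted p of 0.0305 in limma. Without 1 array the call on Cxcl9 was lost when diabetic replicate 1 or 2 was left out (adjusted p of limma 0.0609 and 0.0759). The call on Cxcl10 was lost without diabetic replicate 1, 2 or 3 or wild type replicate 2 (adjusted p of limma 0.208, 0.137, 0.0766 and 0.145), while the log2 change stayed between -1.17 and -0.996 for Cxcl9 and between -0.88 and -0.70 for Cxcl10.

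Cxcl11, the third ligand of Cxcr3, lay below the filter, with 6.64, 6.45 and 6.68 on the diabetic arrays and 6.71, 6.51 and 6.68 on the wild type arrays. These ranges overlapped almost fully, and its log2 change was -0.04 ± 0.09 (SE, n = 3 per group). RefSeq lists mouse Cxcl11 as a transcribed pseudogene in GRCm38.p6, the C57BL/6J assembly. Cxcr3 itself, on chromosome X, had 8.61, 8.77 and 8.86 on the diabetic arrays and 8.72, 8.86 and 8.88 on the wild type arrays. The 95% interval of its log2 change ran from -0.27 to 0.11. T cell and NK cell markers, the genes of cells that bear Cxcr3, gave summed linear signals of 7385 to 10135 on diabetic and 8036 to 9247 on wild type arrays over 18 genes, so these ranges overlapped. In limma 0 of the 16 tested genes of that list had an adjusted p under 0.05. At an unadjusted p under 0.05, 2 were lower and 1 was higher, against 3.17% and 3.99% of all genes tested. Cd4, the coreceptor of helper T cells that some myeloid cells also express, was at -0.53 ± 0.09 (adjusted p of limma 0.1001).

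**Figure D2:**
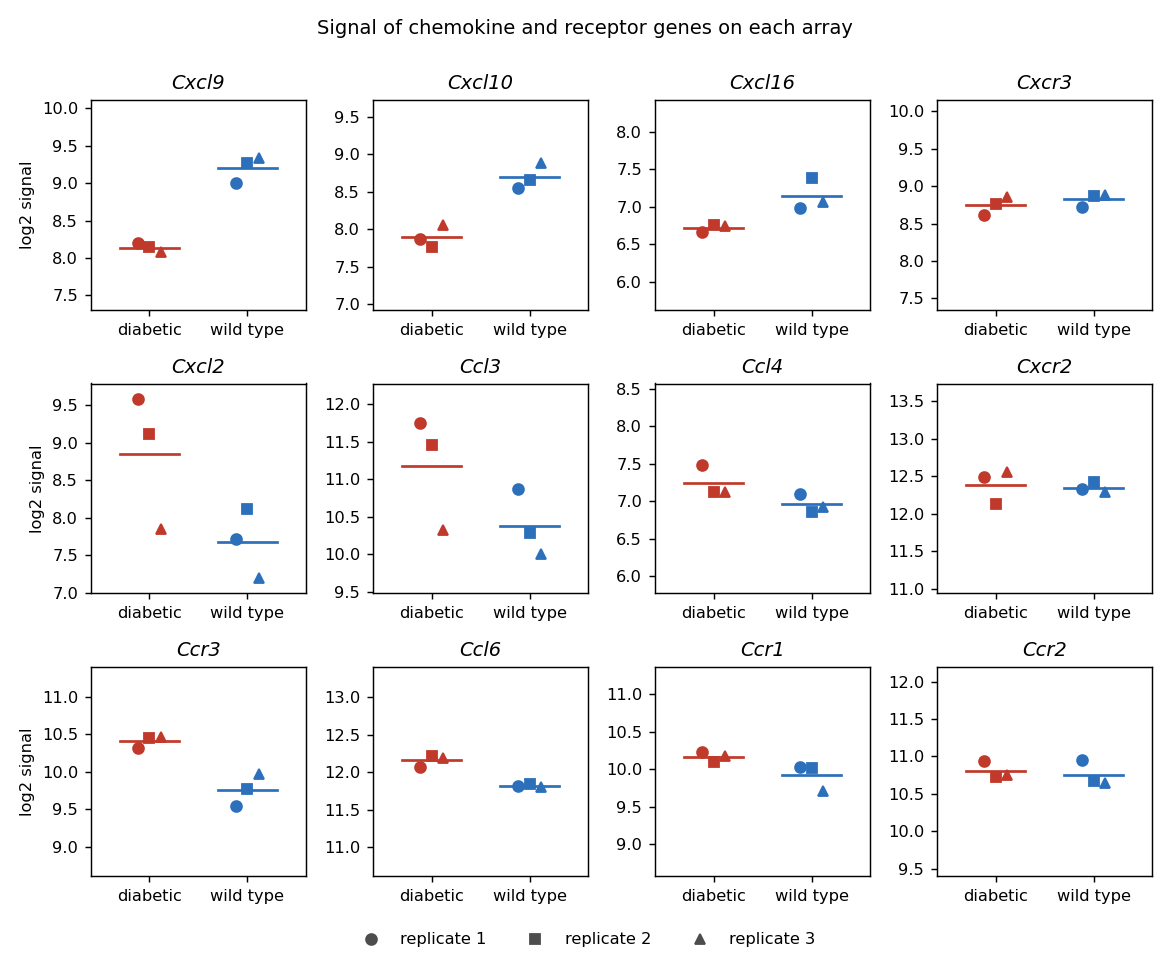
Log2 signal (y axis, 2.8 units high in every panel) of 12 genes on the 3 diabetic (red, left) and 3 wild type (blue, right) arrays, with bars at the group means and symbols for the replicate. The groups lie apart for Cxcl9, Cxcl10, Cxcl16, Ccl4, Ccr3, Ccl6 and Ccr1, and overlap for Cxcr3, Cxcl2, Ccl3, Cxcr2 and Ccr2.

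The stretches before the start sites of Cxcl9 and Cxcl10 are shown because these are the members that fell. They are RefSeq sequences of GRCm38.p6, 250 bases before to 50 bases after the start, written 5′ to 3′ along the gene, with chr5:92328030-92328329 for Cxcl9 and chr5:92348840-92349139 for Cxcl10, both on the minus strand. Capitals mark matches to GAAANNGAAA (an interferon-stimulated response element, ISRE) and GGGANNTTCC (a kB site, the element read by NF-kB).
Cxcl9: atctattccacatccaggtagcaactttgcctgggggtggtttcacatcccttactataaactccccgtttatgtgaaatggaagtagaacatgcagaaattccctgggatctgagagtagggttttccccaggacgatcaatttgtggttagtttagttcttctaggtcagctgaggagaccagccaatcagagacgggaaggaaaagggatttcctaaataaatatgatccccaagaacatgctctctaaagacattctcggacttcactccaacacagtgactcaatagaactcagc
Cxcl10: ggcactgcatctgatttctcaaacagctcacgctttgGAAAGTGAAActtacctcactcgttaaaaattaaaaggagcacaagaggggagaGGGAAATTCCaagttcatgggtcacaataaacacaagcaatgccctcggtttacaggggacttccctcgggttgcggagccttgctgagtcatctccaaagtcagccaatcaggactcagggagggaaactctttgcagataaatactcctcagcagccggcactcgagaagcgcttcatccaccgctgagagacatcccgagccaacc
The Cxcl10 stretch held an ISRE match from -213 to -204 and a kB match from -159 to -150, while in the Cxcl9 stretch neither set of letters was found. Both strands were searched, for the exact letters only, so a stretch without a match can still hold the element in other letters. The search also covered TTCNNNGAA, known as GAS, the element of interferon gamma signalling. It covered the AP-1 letters TGANTCA and the TATA box letters TATAAA. The AP-1 letters were found from -74 to -68 for Cxcl10 and from 32 to 38, after the start, for Cxcl9. The TATA box letters were found for Cxcl9 alone of the pair, from -195 to -190. The GAS letters were found in neither stretch, and the ISRE and kB matches of Cxcl10 did not overlap. Of 32851 RefSeq promoter windows of this length, 3.44% held the ISRE letters, 1.47% the kB letters, 8.3% those of GAS, 7.81% those of AP-1 and 13.6% those of the TATA box. Windows were found for 32 of the 46 members, 34 in all, and the ISRE letters stood in those of Ccl19, Cxcl10 and Cxcl14. Ccl19 had a log2 change of 0.06 ± 0.08 and Cxcl14 of -0.05 ± 0.07 (SE, n = 3 per group), and neither passed.

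Other genes known to answer interferons were lower in the same marrow. The list was chosen with its direction in these data known and is no independent evidence of it. Of the interferon response list, which holds neither ligand, 12 of 19 tested genes fell at an adjusted p under 0.05 in limma and 0 rose. The 4 with the smallest p were Ifit3 at -1.78 ± 0.16, Ifi27l2a at -1.62 ± 0.16, the nucleic acid sensor Zbp1 at -0.97 ± 0.10 and the RNA-sensing synthetase Oas2 at -1.49 ± 0.16. The median log2 change of that list was -1.14, against 0.00 over all genes. The summed linear signal of its 21 genes was 12062 to 13356 on diabetic and 20291 to 27510 on wild type arrays, so the groups did not overlap. In the list of interferon gamma signalling and its targets, 2 of 14 tested genes fell in limma, Irgm1 at -0.90 ± 0.08 and Irf9 at -0.78 ± 0.09, and the median change was -0.11. Irgm1 encodes an immunity-related GTPase and Irf9 a subunit of the factor that binds ISREs. In that list 7 genes were lower and 7 higher. At an unadjusted p under 0.05 in limma 7 were lower and 2 higher, against 3.17% and 3.99% of all genes tested. The GTPase gene Gbp3, at -0.49 ± 0.08, and Socs1, an inhibitor of cytokine signalling, at -0.27 ± 0.07, did not pass, with adjusted p of 0.0836 and 0.285 in limma. Ifng itself lay below the level filter, with log2 signals of 7.62, 7.46 and 7.35 on the diabetic arrays and 7.53, 7.51 and 7.42 on the wild type arrays. How far these signals bear on Cxcl9 and Cxcl10 was not tested.

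Resident macrophages, a source of Cxcl9 and Cxcl10, also gave lower marker signals. Of 14 tested markers, 12 were lower and 2 higher in diabetic marrow, with a median log2 change of -0.34. At an unadjusted p under 0.05 in limma 10 were lower and 1 was higher, against 3.17% and 3.99% of all genes tested. Mertk, a receptor for dying cells, fell by 0.47 ± 0.07 on the log2 scale (adjusted p of limma 0.0380). Axl, a related receptor, was at -0.53 ± 0.09 and the complement gene C1qb at -0.62 ± 0.12, and these did not pass. Cd163, a scavenger receptor of the same cells, was at 0.34 ± 0.06 (adjusted p of limma 0.0660). The summed linear signal of the 15 genes was 11245 to 12598 on diabetic and 13144 to 15185 on wild type arrays, so the groups did not overlap. The part of macrophage content in the lower signals of Cxcl9 and Cxcl10 was not tested. In these bulk samples fewer cells of a type and less RNA per cell cannot be told apart.

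Cxcl16 (probe set 10387890, chromosome 11), a membrane-bound ligand of macrophages and dendritic cells read by Cxcr6, lay below the filter. On the diabetic arrays it read 6.66, 6.76 and 6.74 and on the wild type arrays 6.99, 7.38 and 7.06, so that all diabetic values were lower. The log2 change was -0.42 ± 0.10 (SE, n = 3 per group) and did not pass (adjusted p of limma 0.365, with no level filter). Without wild type replicate 2 it was -0.31. Its receptor Cxcr6, also dim, was at -0.16 ± 0.09 with overlapping groups.

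Ligands and receptors of neutrophil movement showed no change that passed. Cxcr2 (probe set 10347291, chromosome 1), which pulls mature neutrophils out of the marrow, had log2 signals of 12.49, 12.13 and 12.55 on the diabetic arrays and 12.33, 12.42 and 12.30 on the wild type arrays. The diabetic values spread around the wild type ones, with diabetic replicate 2 the lowest of all 6. The log2 change was 0.04 ± 0.11 (SE, n = 3 per group) with a 95% interval from -0.22 to 0.30, and leaving out single arrays gave -0.04 to 0.17. Cxcr1, the neighbouring gene of the same receptor type, was at -0.18 ± 0.13 and did not pass. Late neutrophil markers gave summed linear signals of 100682 to 113431 on diabetic and 100345 to 108070 on wild type arrays over 13 genes, and these ranges overlapped.

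The Cxcr2 ligand Cxcl2 (probe set 10523156, chromosome 5) had the highest log2 change of all members and also the widest spread. It lies outside the rule for per-array values and is given because of that spread. Its log2 signals were 9.59, 9.12 and 7.85 on the diabetic arrays and 7.72, 8.11 and 7.19 on the wild type arrays. Diabetic replicates 1 and 2 stood above all wild type arrays, while diabetic replicate 3 lay within their range. The log2 change was 1.18 ± 0.42 (SE, n = 3 per group), and limma gave an adjusted p of 0.603. It was 0.81 without diabetic replicate 1 and 1.68 without diabetic replicate 3.

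The other ligands of Cxcr2 had log2 changes near or below 0. Cxcl1, the neighbour of Cxcl2 on chromosome 5, was at 0.00 ± 0.06 with a 95% interval from -0.14 to 0.15. Cxcl3 was dim, with 6.31, 6.34 and 6.32 on the diabetic arrays and 6.38, 6.35 and 6.40 on the wild type arrays. Its groups did not overlap, but the log2 change of -0.05 ± 0.06 was smaller than its moderated error. The SD of Cxcl3 was only 0.01 in diabetic and 0.02 in wild type marrow. Cxcl5, dim as well, was at -0.24 ± 0.09 (SE, n = 3 per group) with an unadjusted limma p of 0.0267 and an adjusted p of 0.752, and its groups overlapped by the value of diabetic replicate 3, 6.31, against 6.29 on wild type replicate 2. Cxcl15, a ligand known from mouse lung, had the lowest mean signal of all members, 5.22, and a log2 change of 0.12 ± 0.09.

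The kB letters were found before Cxcl1, Cxcl2 and Cxcl3, which are shown with Cxcl10 because they share these letters. The stretches are RefSeq sequences of GRCm38.p6 on chromosome 5, 5′ to 3′, with 10 bases on either side of the match in capitals.
Cxcl1: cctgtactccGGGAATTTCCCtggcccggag
Cxcl2: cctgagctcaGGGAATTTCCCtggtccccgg
Cxcl3: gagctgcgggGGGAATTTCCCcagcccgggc
Cxcl10: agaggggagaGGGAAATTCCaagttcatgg
In the first 3 genes the letters matched on both strands at overlapping positions. Of 32 members with a promoter window, 6 held them, also Ccl1 and Ccr3, against 1.47% of all 32851 windows. Log2 changes in these 6 genes ran from -0.80 in Cxcl10 to 1.18 in Cxcl2.

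Among CC ligands, Ccl3 (probe set 10389231, chromosome 11), an inflammatory ligand of Ccr1, varied like Cxcl2 over the arrays, and it too lies outside the rule for per-array values. Its log2 signals were 11.76, 11.45 and 10.32 on the diabetic arrays and 10.87, 10.28 and 10.00 on the wild type arrays. Diabetic replicates 1 and 2 were again the highest, and diabetic replicate 3 lay within the wild type range. The log2 change was 0.79 ± 0.37 (SE, n = 3 per group), for which limma gave an adjusted p of 0.7305. It was 0.50 without diabetic replicate 1 and 1.22 without diabetic replicate 3. Ccl4, the next gene on the chromosome and a related ligand, was dim, with 7.48, 7.12 and 7.12 on the diabetic arrays and 7.10, 6.86 and 6.92 on the wild type arrays. Its diabetic values all lay above the wild type values, but by a narrow margin, and the log2 change of 0.28 ± 0.11 did not pass (adjusted p of limma 0.793 with no level filter). Without diabetic replicate 1 it was 0.16.

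Ccl6 (probe set 10389222, chromosome 11) is a rodent ligand of Ccr1 made by myeloid cells. The diabetic arrays read 12.07, 12.21 and 12.19, against 11.82, 11.84 and 11.81 on the wild type arrays. The wild type arrays lay close together, and all diabetic values stood above them. The mean was 12.16 ± 0.07 in diabetic and 11.82 ± 0.02 in wild type marrow (SD, n = 3 each). The log2 change of 0.34 ± 0.06 (SE), or 1.26-fold, missed the threshold with an adjusted p of 0.103 in limma. Ccl9, the next gene and also a rodent ligand of Ccr1, was at 0.18 ± 0.09, and Ccl5, a ligand made by T cells and NK cells, at -0.05 ± 0.12. Both had overlapping groups.

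On chromosome 11 the genes Ccl5, Ccl9, Ccl6, Ccl3 and Ccl4 follow each other with no other protein-coding gene between neighbours, and in 4 of these 5 the log2 change was above 0. A further run of 6 members on that chromosome, Ccl2, Ccl7, Ccl11, Ccl12, Ccl8 and Ccl1, lay wholly below the level filter, with 5 of 6 changes under 0 and none past the threshold. Over all 19938 genes, 10309 changes were above 0 and 9629 under 0. Ccl2, Ccl7 and Ccl12, the ligands of Ccr2, had -0.02 ± 0.10, -0.06 ± 0.08 and -0.15 ± 0.12. Ccl1, a ligand of Ccr8, had groups that did not overlap, but a log2 change of 0.06 ± 0.06 (moderated SE). Its SD was 0.03 in diabetic and 0.02 in wild type marrow. Neighbouring family members have related sequences, and cross-hybridisation between them was not tested.

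Among receptors, Ccr3 (probe set 10590628, chromosome 9), the receptor that eosinophils use to follow eotaxins, came closest to the threshold. Its log2 signals were 10.31, 10.45 and 10.46 on the diabetic arrays and 9.55, 9.76 and 9.97 on the wild type arrays. All 3 diabetic values exceeded all wild type values. The mean was 10.41 ± 0.08 in diabetic and 9.76 ± 0.21 in wild type marrow (SD, n = 3 each). The log2 change of 0.65 ± 0.11 (SE), or 1.56-fold, had an adjusted p of 0.0719 in limma. When single arrays were left out, limma gave adjusted p from 0.0194 to 0.331. Only the omission of wild type replicate 3, which gave the 0.0194, put Ccr3 past the threshold. The eotaxins Ccl11 and Ccl24 were dim and at -0.04 ± 0.08 and -0.03 ± 0.06.

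Other eosinophil genes had log2 changes on both sides of 0, and 0 passed. Il5ra, the eosinophil receptor for interleukin 5, was at 0.31 ± 0.11 and Siglecf, an eosinophil surface lectin, at 0.23 ± 0.11, with adjusted p of 0.577 and 0.740 in limma. Epx and Prg2, which encode granule proteins of eosinophils, were at -0.07 ± 0.10 and 0.04 ± 0.13. The list of eosinophil, basophil and mast cell markers had 5 of 11 tested genes higher and 6 lower, and its 13 genes summed to linear signals of 32173 to 34758 on diabetic and 32015 to 36044 on wild type arrays. The part of eosinophil numbers in the Ccr3 signal was not tested.

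Ccr1 (probe set 10598004, chromosome 9), a receptor of monocytes and neutrophils for Ccl3, Ccl6 and Ccl9, had log2 signals of 10.23, 10.10 and 10.18 on the diabetic arrays and 10.03, 10.01 and 9.71 on the wild type arrays. The groups did not overlap, although the lowest diabetic and the highest wild type value differed little. The log2 change of 0.25 ± 0.09 (SE, n = 3 per group) did not pass, with an adjusted p of 0.626 in limma, and it was 0.15 without wild type replicate 3. Ccr1l1, a Ccr1-like gene between Ccr1 and Ccr3, was dim and at 0.10 ± 0.06, and its groups did not overlap either. Both lie in a run of 6 members on chromosome 9, Ccr9, Cxcr6, Ccr1, Ccr1l1, Ccr3 and Ccr2, with at most 1 other protein-coding gene between neighbours. In 5 of these 6 the log2 change was above 0, as it was in 10309 of all 19938 genes. Ccr9 was at 0.00 ± 0.10 and Ccr2 at 0.05 ± 0.10, and each kept its sign in 4 of 6 fits with 1 array left out.

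Ccr2 (probe set 10590631), the next gene after Ccr3, had log2 signals of 10.94, 10.72 and 10.75 on the diabetic arrays and 10.95, 10.67 and 10.65 on the wild type arrays. The group ranges coincided almost entirely, with replicate 1 the highest in each group. The log2 change was 0.05 ± 0.10 (SE, n = 3 per group) with a 95% interval from -0.18 to 0.28, and an adjusted p of 0.984 in limma. Monocyte markers summed to 27691 to 32796 on diabetic and 25058 to 28677 on wild type arrays over 13 genes, so these ranges overlapped. Of 12 tested genes, 7 were higher and 5 lower. Of that list 0 genes passed in limma. At an unadjusted p under 0.05, 1 was lower and 4 were higher, against 3.17% and 3.99% of all genes tested. Vcan, a matrix proteoglycan of monocytes, was at 1.43 ± 0.22 with an adjusted limma p of 0.0506, and the fibronectin gene Fn1 at 0.65 ± 0.13. The 1 lower gene, Ms4a4c, was at -0.40 ± 0.12 with an adjusted limma p of 0.539, and its groups did not overlap. The part of monocyte content in the receptor signals was not tested.

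**Figure D3:**
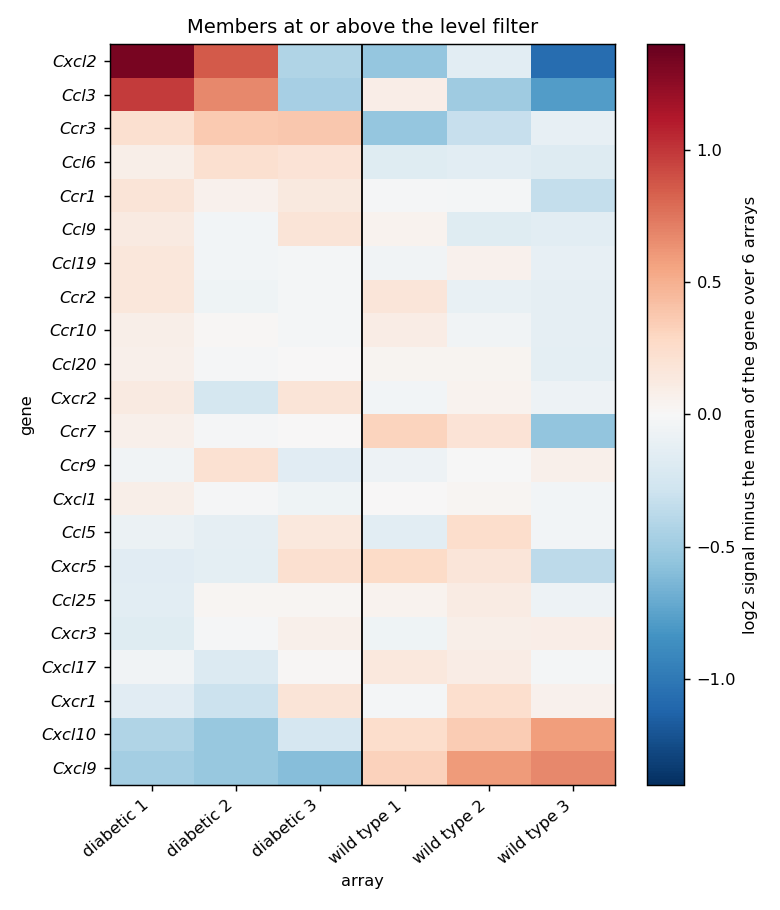
Log2 signal minus the mean of the gene over 6 arrays for the 22 members above the level filter (rows, by log2 change) on each array (columns, diabetic left of the line). Cxcl9 and Cxcl10 at the bottom are below their means on all 3 diabetic arrays, Cxcl2 and Ccl3 at the top are highest on diabetic replicates 1 and 2, and Ccr7 and Cxcr5 are low on wild type replicate 3.

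The lymphocyte homing receptors Ccr7 and Cxcr5 varied more within the groups than between them. Ccr7, which guides lymphocytes and dendritic cells to lymph nodes, had 9.68, 9.58 and 9.61 on the diabetic arrays and 9.91, 9.80 and 9.05 on the wild type arrays. Wild type replicate 3 was the lowest, and the log2 change of 0.04 ± 0.20 became -0.23 without that array. Cxcr5, the follicular homing receptor of B cells, had 7.42, 7.45 and 7.81 on the diabetic arrays and 7.85, 7.75 and 7.22 on the wild type arrays, with wild type replicate 3 again the lowest. Its log2 change of -0.05 ± 0.17 became -0.24 without that array, and leaving out single arrays gave values from -0.24 to 0.07, so it has no settled sign. B cell markers spread more over the wild type than the diabetic arrays, with summed linear signals of 18708 to 21613 on diabetic and 15460 to 31497 on wild type arrays over 13 genes. The part of B cell content in the signals of Ccr7 and Cxcr5 was not tested.

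Ccr9, a gut and thymus homing receptor that plasmacytoid dendritic cells also carry, was at 0.00 ± 0.10, and its ligand Ccl25 at -0.06 ± 0.08. Ccr10, a receptor for skin and mucosal ligands, was at 0.05 ± 0.08. Ccl19, a ligand of Ccr7, and Ccl20, the ligand of Ccr6, were at 0.06 ± 0.08 and 0.04 ± 0.07, and Cxcl17, a mucosal chemokine, at -0.15 ± 0.08. The 13 members above the filter other than Cxcl2, Cxcl9, Cxcl10, Ccl3, Ccl6, Ccr1, Ccr2, Ccr3 and Cxcr2 had log2 changes from -0.18 to 0.18, and the smallest unadjusted limma p among them was 0.0684, for Ccl9. Ccl19 had 5 probe sets with log2 changes from 0.00 to 0.06, and the second, dimmer set of Ccl25 gave -0.12. Probe sets shared by the Ccl21 and Ccl27 gene copies, 7 in number, carried several symbols, some with identical values, and had log2 changes from -0.01 to 0.06.

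The 24 members below the level filter had mean log2 signals from 5.22 for Cxcl15 to 7.42 for Ccl11. In limma with no level filter, 0 of the 24 had an adjusted p under 0.05, where 0.286% of 19938 genes did. At an unadjusted p under 0.05 there were 3, Cxcl16, Cxcl5 and Ccl4, and 4.48% of all genes below the filter met that rule. The groups did not overlap in 5 of the 24, Ccl1, Ccl4, Ccr1l1, Cxcl3 and Cxcl16, and in 8.5% of all genes below the filter. The 21 members other than Cxcl16, Cxcl5 and Ccl4 had log2 changes from -0.22 for Ccr8, a receptor of regulatory T cells, to 0.16 for Ccr6, a receptor of B cells and T cell subsets. Besides those already given, they were the skin and lymphoid ligands Ccl17 (-0.04 ± 0.07) and Ccl22 (-0.07 ± 0.07) with their receptor Ccr4 (0.02 ± 0.06), the B cell ligand Cxcl13 (0.04 ± 0.12), the mucosal ligand Ccl28 (-0.09 ± 0.10), and Ccl8 (-0.07 ± 0.07), Ccl26 (0.06 ± 0.10) and Cxcl14 (-0.05 ± 0.07). Each error is the moderated SE of limma with 3 arrays per group. A dim signal can lie near the array's background, so these values do not show that a gene had the same level in both groups.

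A list of ligand and receptor partners, which does not hold every known partnership, was read for pairs of members. Of 24 pairs on that list, 8 had both genes above the level filter, Cxcl9 and Cxcl10 with Cxcr3, Cxcl1 and Cxcl2 with Cxcr2, Ccl3 and Ccl5 with Ccr1, Ccl19 with Ccr7 and Ccl25 with Ccr9. In none of the 8 did both genes pass an adjusted p of 0.05 in limma. In the partnerships of Cxcl9 and Cxcl10 the ligand fell, while the receptor had a log2 change of -0.08. Ccl6 and Ccl9 with Ccr1 were not on the list. These genes also lay above the filter, with log2 changes of 0.34 for Ccl6, 0.18 for Ccl9 and 0.25 for Ccr1, and did not pass.

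Of the wider chemokine system, 14 further genes outside the name rule had a probe set and 10 were tested, 3 higher and 7 lower. In limma 0 passed the threshold and 1 was lower at an unadjusted p under 0.05, as were 3.17% of all genes tested. That gene was Xcl1, a ligand of cross-presenting dendritic cells made by NK cells and T cells, with log2 signals of 8.04, 7.96 and 8.02 on the diabetic arrays and 8.28, 8.40 and 8.36 on the wild type arrays. All diabetic values lay below the wild type values, and the log2 change of -0.34 ± 0.06 had an adjusted p of 0.103 in limma. Cx3cr1, the fractalkine receptor of patrolling monocytes, was at 0.20 ± 0.09, and the platelet chemokines Pf4 and Ppbp were at -0.08 ± 0.27 and -0.11 ± 0.25. Of 24 tested genes that carry or dampen the signal from chemokine receptors, 20 were higher and 4 lower in diabetic marrow. Rgs1, among the higher ones, passed the level filter only through its diabetic mean of 8.09, with a wild type mean of 7.21. Over all 11940 genes above the filter, 6251 were higher and 5689 lower. The median log2 change of the 24 was 0.09, and 0 passed in limma. At an unadjusted limma p under 0.05, where 3.99% of all genes were higher, 2 of the 24 were higher. These were Prex1, an exchange factor for Rac, at 0.23 ± 0.06, and Arrb2, an arrestin that ends receptor signalling, at 0.23 ± 0.08.

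**Figure D4:**
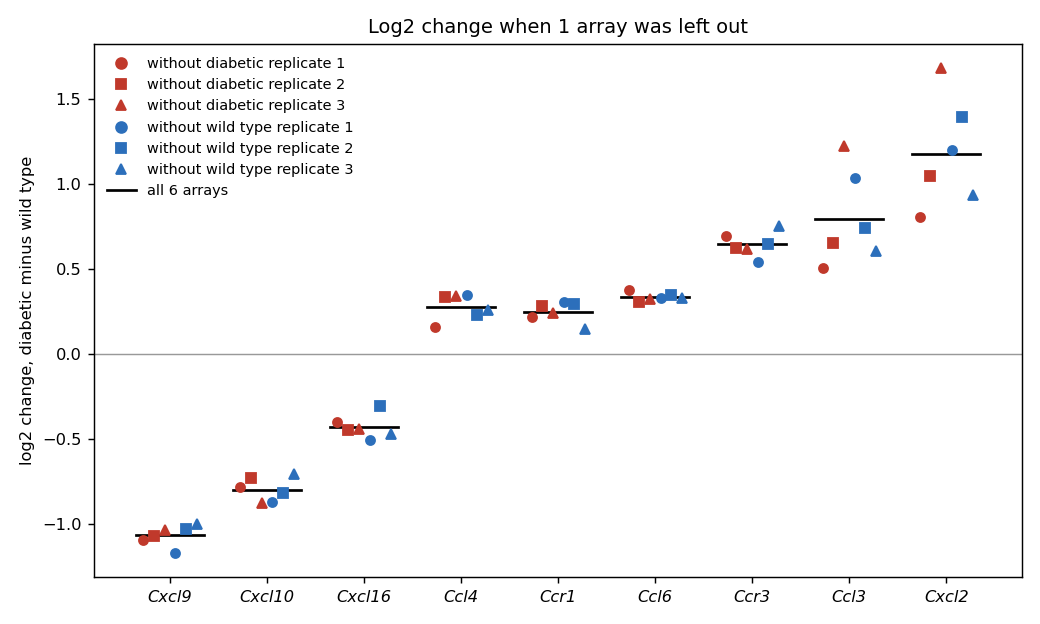
Log2 change (diabetic minus wild type, y axis) of 9 members when each array was left out in turn, red for a diabetic and blue for a wild type array, with the value over all 6 arrays as a black bar. Cxcl9 stayed between -1.17 and -0.996 and Ccl6 between 0.31 and 0.38, while Cxcl2 ran from 0.81 to 1.68 and Ccl3 from 0.50 to 1.22.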

How the data were processed

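The deposited values were log2 signals. Per the submitters' processing notes, the authors used RMA and Expression Console. RMA equalises the distributions of the arrays, so a shift shared by most genes cannot be seen. Software versions and the genome build can be named only as not given in the sources used here. Probe intensities were not analysed here.

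Of 35556 probe sets, 21789 had 1 gene symbol in the platform annotation, 1621 several and 12146 none, and genes were named from the first kind only. All 46 member symbols matched the RefSeq genes of GRCm38.p6, a list which served for names, chromosomes and gene order. Groups came from the sample titles.

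Diabetic and wild type arrays were compared in R 4.3.3 by the moderated linear model of limma 3.58.1 (lmFit, eBayes), with no covariate, over all 11940 genes at or above the level filter. The Benjamini-Hochberg adjustment ran over every gene tested, and the threshold was 0.05. Members below the filter were taken from the same fit over all 19938 genes. The test was checked on simulated data. Summed linear signals are sums of 2 to the power of the log2 signal. The brightest probe sets weigh most in them, such as Nkg7 among T cell and NK cell markers and Fn1 among monocyte markers. Python 3.11.15 with matplotlib 3.10.9 made the figures. The members and the gene lists were chosen with earlier results of these data known. Per-array values were given for Cxcl9, Cxcl10, Cxcr2 and Ccr2, for members past the threshold, and for members with groups that did not overlap and an unadjusted p under 0.05. Other genes given per array, and list genes beyond the 4 with the smallest p, were chosen after their values were seen. Alternatives were other level filters, normalizations, probe set summaries, eBayes settings, array weights, a replicate block, a test of every probe set, and the omission of single arrays.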

Additional observations from a re-analysis of the deposited data

How the results depend on the processing

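The 2 members called lower, Cxcl9 and Cxcl10, were both called with no level filter, a further quantile normalization, a mean over each gene's probe sets and eBayes with trend and robust settings. The count was 1 with the level filter at the 60th percentile, where Cxcl10 was no longer tested, and 1 with median centring, where Cxcl10 had an adjusted p of 0.0519 in limma. It was 0 when all probe sets were tested, where limma gave adjusted p of 0.0962 for Cxcl9 and 0.163 for Cxcl10 and called 1 probe set in all, against 49 genes in the reported fit. With array weights it was 4, and 6 members were called higher instead of 0 (Ccl3, Ccl6, Ccl9, Ccr1, Ccr3 and Cxcl2). That fit called 1131 genes with weights from 0.283 to 6.78, and its weight estimate stopped before it converged. Leaving out each array in turn gave 0 to 2 members lower and 0 to 1 higher, the higher one being Ccr3 without wild type replicate 3. With the replicate block 0 members were lower and 0 higher, limma gave Cxcl9 and Cxcl10 an adjusted p of 0.0600 each, and 2 genes were called in all. Same-numbered arrays deviated from their group means with correlations of 0.327, -0.0438 and -0.0541, so the numbers were not taken to pair the samples. The log2 changes of Cxcl9 and Cxcl10 kept their sign in 15 of 15 and 14 of 14 alternatives. Precision is limited throughout by having 3 arrays per group, and how far the dim signals stand above background is unknown.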

Other observations

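The array pattern of Cxcl2 and Ccl3 resembled that of a gene of another list, picked after its values were seen. Rgs1, a regulator that dampens chemokine receptor signals, had log2 signals of 8.90, 8.69 and 6.67 on the diabetic arrays and 7.12, 7.26 and 7.24 on the wild type arrays. Diabetic replicates 1 and 2 stood above all wild type arrays and diabetic replicate 3 below them. The log2 change was 0.88 ± 0.51 (SE, n = 3 per group), for which limma gave an adjusted p of 0.859. The wild type mean of Rgs1, 7.21, lay under the level filter, so the gene was tested only through its diabetic signals. Il1b, a cytokine that induces chemokines, had 11.14, 10.49 and 10.42 on the diabetic arrays and 9.79, 10.34 and 10.19 on the wild type arrays. All diabetic values were higher, at a log2 change of 0.58 ± 0.21 (adjusted p of limma 0.604). Tnf was at 0.07 ± 0.06.

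Plasma cell markers, of which 7 of 7 tested genes were lower with a median log2 change of -0.35, had summed linear signals of 7099 to 7412 on diabetic and 8747 to 10503 on wild type arrays over 9 genes. None of the 7 passed in limma, where 3 had an unadjusted p under 0.05, while 3.17% of all genes tested were lower by that rule. Dendritic cell markers, with 9 of 14 tested genes lower and 5 higher, had summed linear signals of 16022 to 17833 on diabetic and 15836 to 19765 on wild type arrays over 15 genes. In limma 0 of these 14 passed. At an unadjusted p under 0.05, 5 were lower and 1 was higher, against 3.17% and 3.99% of all genes tested. Bst2, one of the lower genes, is also in the interferon response list. Megakaryocyte and platelet markers gave 9637 to 12545 on diabetic and 8887 to 16557 on wild type arrays over 9 genes.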
